A study of Homo sapiens with 6 samples.

Results

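Glycosylphosphatidylinositol (GPI) anchors are glycolipids that hold many surface proteins, mesothelin among them, in the outer leaflet of the plasma membrane. The genes described here are those that build the anchor, attach it to proteins and remodel it afterwards. A list of 32 genes was set by name and divided by step. No measured value enters the rule, although earlier results of these data were known when the list was set. Of these, 31 were found among the 11363 genes of the deposited table through their Ensembl identifiers, and PGAP4 was not analysed here. The RNA came from NOMO-1, an established human line from a monocytic acute leukaemia with a KMT2A-MLLT3 fusion. Parental cells (WT) and cells with a knockout of the mesothelin gene MSLN (MSLN-KO) were each sequenced in 3 libraries. No treatment or time point separates the libraries in the labels, which also do not say whether the knockout is 1 clone or a pool, or whether replicates were separate cultures. The p-values therefore rest on a spread between libraries that could be purely technical.

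The anchor is made on phosphatidylinositol in the membrane of the endoplasmic reticulum. N-acetylglucosamine (GlcNAc) is added on the cytosolic side and deacetylated, an acyl chain is put on the inositol, and mannoses from dolichol-phosphate-mannose and ethanolamine phosphates follow on the luminal side. A transamidase of several subunits then cuts the C-terminal signal of a protein and joins the protein to the finished anchor, whose acyl chains and side groups are trimmed and exchanged on the way through the endoplasmic reticulum and Golgi. In blood cells the pathway is best known from paroxysmal nocturnal haemoglobinuria, in which a clone with a somatic PIGA mutation lacks the anchored complement regulators.

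The libraries held between 23665824 and 30804446 reads in the listed genes, and each GPI-anchor gene had between 138 and 3967 reads per library. MSLN itself stood at 153.2, 122.9 and 105.9 CPM (read counts scaled to library size) in the WT libraries and at 45.7, 46.9 and 45.3 CPM in the MSLN-KO libraries, so 36.1% of the WT transcript level remained. A gene was called where the adjusted p was under 0.05 (limma on log2(CPM + 1), Benjamini-Hochberg over all 11363 genes, two-sided). Of 11 markers of monocytic leukaemia all were listed, and 6 fell and 3 rose, 81.8% called beside 45.7% of all genes. CD14 is among those that fell, and it was listed only through its WT values. The granule peroxidase MPO fell by 4.00 on the log2 scale, lysozyme (LYZ) by 1.26, CD14 by 1.24, CSF1R by 0.39, CD68 by 0.37 and ITGAM by 0.23. FCGR1A, an Fc receptor of monocytes, rose by 0.78, CD33 by 0.39 and KMT2A by 0.29, the last not called without WT replicate 3 (adjusted p = 0.0512). Of 13 markers of other cell types only KRT18 was listed, at 8.67 CPM in WT. WT replicate 2 and MSLN-KO replicate 3 stood apart. Across 11314 genes with a known transcript composition, the deviation of these libraries from their group means correlated with GC content at -0.51 and -0.53. The correlation was 0.48 and 0.10 in WT replicates 1 and 3, and 0.385 and 0.345 in MSLN-KO replicates 1 and 2. The correlation of WT replicate 1 was thus almost as strong as that of WT replicate 2, in the other direction. Deviations from a group mean cancel out, so the signs within a group cannot all be the same. Results are given with and without WT replicate 2 and MSLN-KO replicate 3 together where that changes a call. The part of GC content in any result was not tested.

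As a set, the GPI-anchor genes did not move in 1 direction. By the limma test 6 members rose (PIGQ, PGAP1, PIGK, PIGP, PIGN and PIGL), 5 fell (PIGB, DPM3, GPAA1, MPDU1 and PIGT) and 20 were not called. This is 35.5% of the 31 members, beside 45.7% of all genes called, of which 22.4% of the table rose and 23.3% fell, so the members' share lies below that of the table. The median log2 change was 0.00 for the members and 0.01 for all genes. Counted without a test, the 3 values of each group did not overlap for 14 members (8 higher and 6 lower in MSLN-KO), and this held for 54.7% of all genes. Without WT replicate 2 and MSLN-KO replicate 3, 4 members rose and 6 fell, while the genes called over the whole table went from 5197 to 5580. In bulk RNA, fewer cells of a kind and less RNA per cell cannot be told apart, and this holds for every change below.

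**Figure D1:**
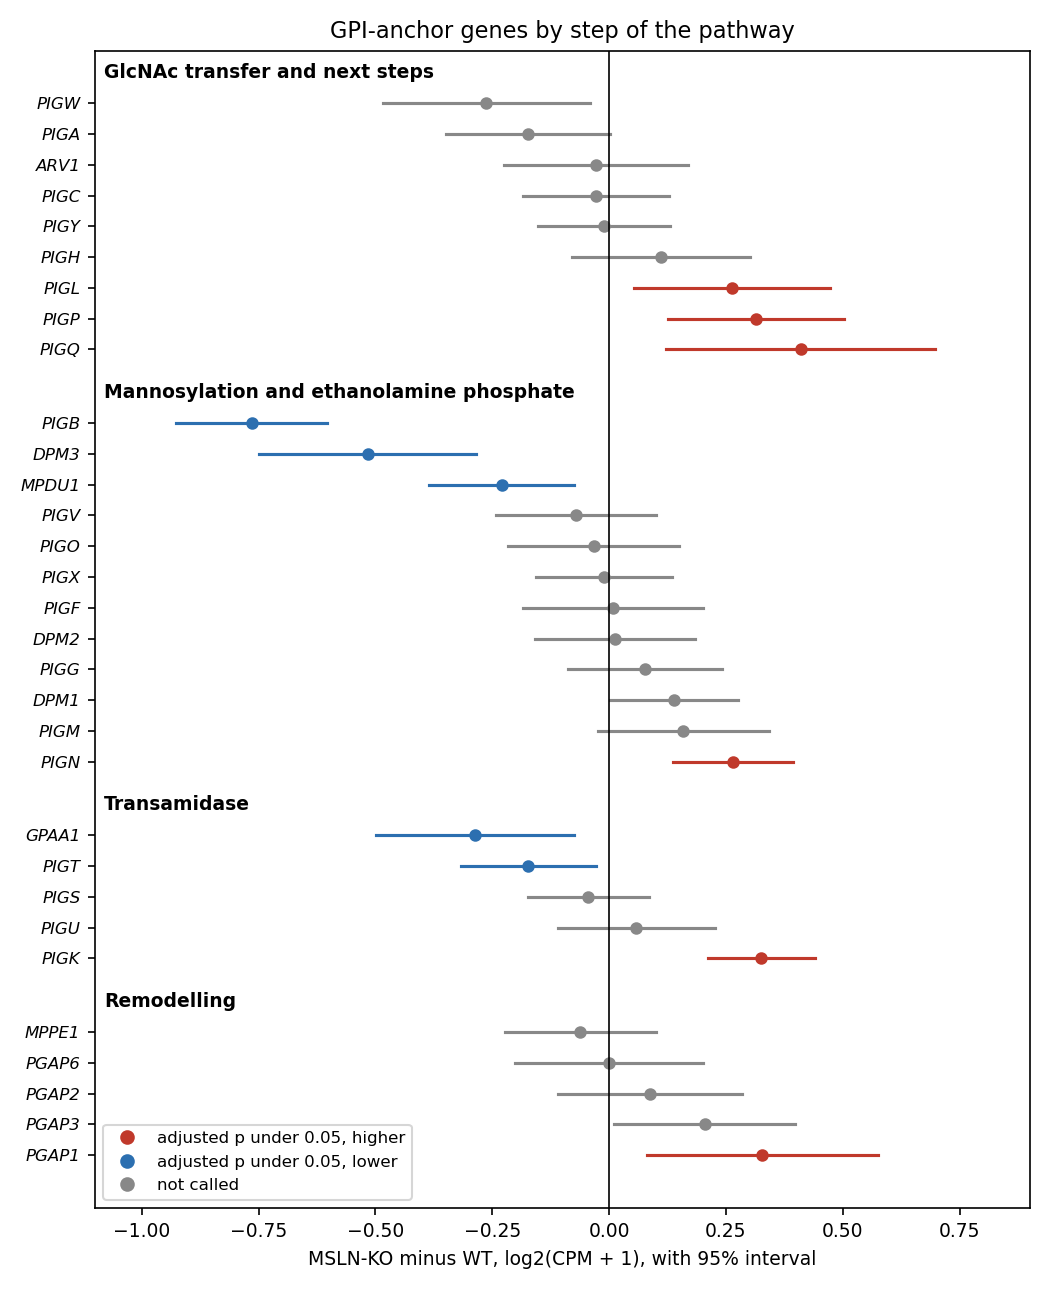
Change of each of the 31 listed GPI-anchor genes between MSLN-KO and WT (horizontal axis, difference of mean log2(CPM + 1), 3 libraries per group), grouped by step, with points for the limma estimate, bars for its 95% confidence interval and colour for genes called higher or lower. Called genes lie on both sides of 0 in the mannosylation and transamidase groups, and the estimates run from -0.76 (PIGB) to 0.41 (PIGQ).

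The spread between libraries of a group was like that of other genes. The median coefficient of variation of the members was 5.84% in WT and 6.21% in MSLN-KO, beside 6.15% and 5.60% for all genes. PIGQ varied most of the members in both groups, by 15.3% in WT and 18.6% in MSLN-KO.

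Promoter sequence from RefSeq (GRCh38.p14, 250 bases before to 50 after the gene start) was matched for 26 of the 31 members. PIGN, PIGK and DPM3 are shown because their calls held under every setting tried and part of their window lies outside annotated exons, and only that part is printed. PIGB and PIGP also kept their calls, but the bases before their starts lie inside annotated exons and are not printed. The stretch for PIGN is chr18:62187119-62187254, that for PIGK chr1:77219431-77219680 and that for DPM3 chr1:155140596-155140781. All 3 genes lie on the minus strand, and the sequences read 5′ to 3′ with matches to GGGCGG, the GC box, on either strand in capitals:
PIGN: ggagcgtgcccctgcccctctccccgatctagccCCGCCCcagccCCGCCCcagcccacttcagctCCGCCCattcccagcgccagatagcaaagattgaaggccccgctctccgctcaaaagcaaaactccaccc
PIGK: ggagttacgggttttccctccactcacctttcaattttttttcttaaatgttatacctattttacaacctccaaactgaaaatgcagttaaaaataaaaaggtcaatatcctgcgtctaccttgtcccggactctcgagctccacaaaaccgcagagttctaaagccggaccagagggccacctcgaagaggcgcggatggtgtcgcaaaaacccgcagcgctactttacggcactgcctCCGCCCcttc
DPM3: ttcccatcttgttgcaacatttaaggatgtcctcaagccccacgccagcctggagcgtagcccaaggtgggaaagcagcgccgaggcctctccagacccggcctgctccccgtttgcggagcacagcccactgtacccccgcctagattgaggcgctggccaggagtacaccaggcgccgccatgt
The PIGN stretch holds 3 GC boxes on the strand opposite to the printed one and the PIGK stretch holds 1. The DPM3 stretch holds none. Over the full windows, searched on both strands, 13 of the 26 members held GGGCGG, beside 70.6% of the windows of genes in the table and 44.6% of all windows. The ETS motif CCGGAAG was in 38.5% of members and 21.5% of genes in the table, the NRF1 core TGCGCA in 11.5% and 14.3%, and CCAAT in 30.8% and 37.7%. TATAAA was in 3.8% of members and 5.5% of genes in the table, the cyclic AMP response element TGACGTCA in 3.8% and 3.5%, and the amino acid response element TGATGNAA in 0 of 26 members and 1.6% of genes in the table. Matches to different motifs may share bases in a window, and a match describes the letters only. The median GC content of the windows was 64.3% in members and 65.3% in genes of the table.

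The first reaction of the pathway is done by an enzyme of several subunits. Of the 9 genes of GlcNAc transfer and the steps next to it, 3 rose (PIGQ, PIGP and PIGL), none fell and 6 were not called, with a median log2 change of -0.01. Of these 9 genes, 33.3% were called, beside 45.7% of all genes, and 22.4% of all genes rose.

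PIGP, a small subunit of the GlcNAc transferase, lies on chromosome 21 (GRCh38, 37059170 to 37073170). It stood at 10.2, 11.6 and 10.1 CPM in WT and at 13.9, 12.9 and 13.6 CPM in MSLN-KO. Every MSLN-KO library lay above every WT library. The mean rose from 10.6 ± 0.808 to 13.5 ± 0.539 CPM (SD, n = 3 each), a log2 change of 0.32 (SE 0.09, limma adjusted p = 0.0102). PIGQ, another subunit of the same enzyme, lies on chromosome 16 (566995 to 584136). That chromosome also carries MSLN (760762 to 768865) and the uncalled member PGAP6 (370773 to 387113). PIGQ stood at 13.2, 9.75 and 11.0 CPM in WT and at 17.2, 17.0 and 12.1 CPM in MSLN-KO. Here the groups overlapped, since MSLN-KO replicate 3 lay below WT replicate 1. The mean went from 11.3 ± 1.73 to 15.4 ± 2.86 CPM, a log2 change of 0.41 (SE 0.13, limma adjusted p = 0.0231). That call was lost without any 1 of 4 libraries, with an adjusted p of 0.0849 without WT replicate 2, 0.0711 without WT replicate 3, 0.102 without MSLN-KO replicate 1 and 0.0807 without MSLN-KO replicate 2. With the GC trend of each library removed, the log2 change of PIGQ was 0.28 (limma adjusted p = 0.0237), below that of PIGP (0.32). The GC content of the PIGQ transcript is 66.2%.

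PIGL, the deacetylase that acts on GlcNAc-phosphatidylinositol, lies on chromosome 17 (16217191 to 16351797). It stood at 6.28, 5.84 and 6.45 CPM in WT and at 7.46, 7.27 and 8.17 CPM in MSLN-KO, without overlap. Mean expression went from 6.19 ± 0.311 to 7.63 ± 0.474 CPM, a log2 change of 0.26 (SE 0.10, limma adjusted p = 0.0405). The call was lost without any single library, with adjusted p between 0.055 and 0.108, and was 0.198 without WT replicate 2 and MSLN-KO replicate 3 together. PIGW, the inositol acyltransferase (chromosome 17, 36535020 to 36539310), was the uncalled gene of this step with the highest absolute change. It stood at 7.47, 6.77 and 7.54 CPM in WT and at 5.36, 5.88 and 6.44 CPM in MSLN-KO. The groups did not overlap, yet the log2 change of -0.26 (SE 0.10) had a limma adjusted p of 0.0508. Without both libraries that stood apart it was -0.36 (adjusted p = 0.0208).

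The catalytic subunit PIGA, the X-linked gene mutated in paroxysmal nocturnal haemoglobinuria, stood at 16.7, 17.2 and 17.7 CPM in WT and at 16.2, 14.0 and 15.2 CPM in MSLN-KO. Its groups did not overlap, and its log2 change of -0.17 (95% confidence interval -0.35 to 0.00) was not called (limma adjusted p = 0.0984). The other subunits PIGC and PIGH had log2 changes of -0.03 (interval -0.18 to 0.13) and 0.11 (-0.08 to 0.30). ARV1, a membrane protein of the endoplasmic reticulum needed for efficient anchor synthesis, was at -0.03 (-0.23 to 0.17). PIGY, the smallest subunit, was listed at -0.01, but its values equalled those of PYURF in all 6 libraries. The annotated exons of PIGY lie wholly inside those of PYURF on the same strand, so reads of these genes cannot be told apart and the PIGY value is uncertain.

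**Figure D2:**
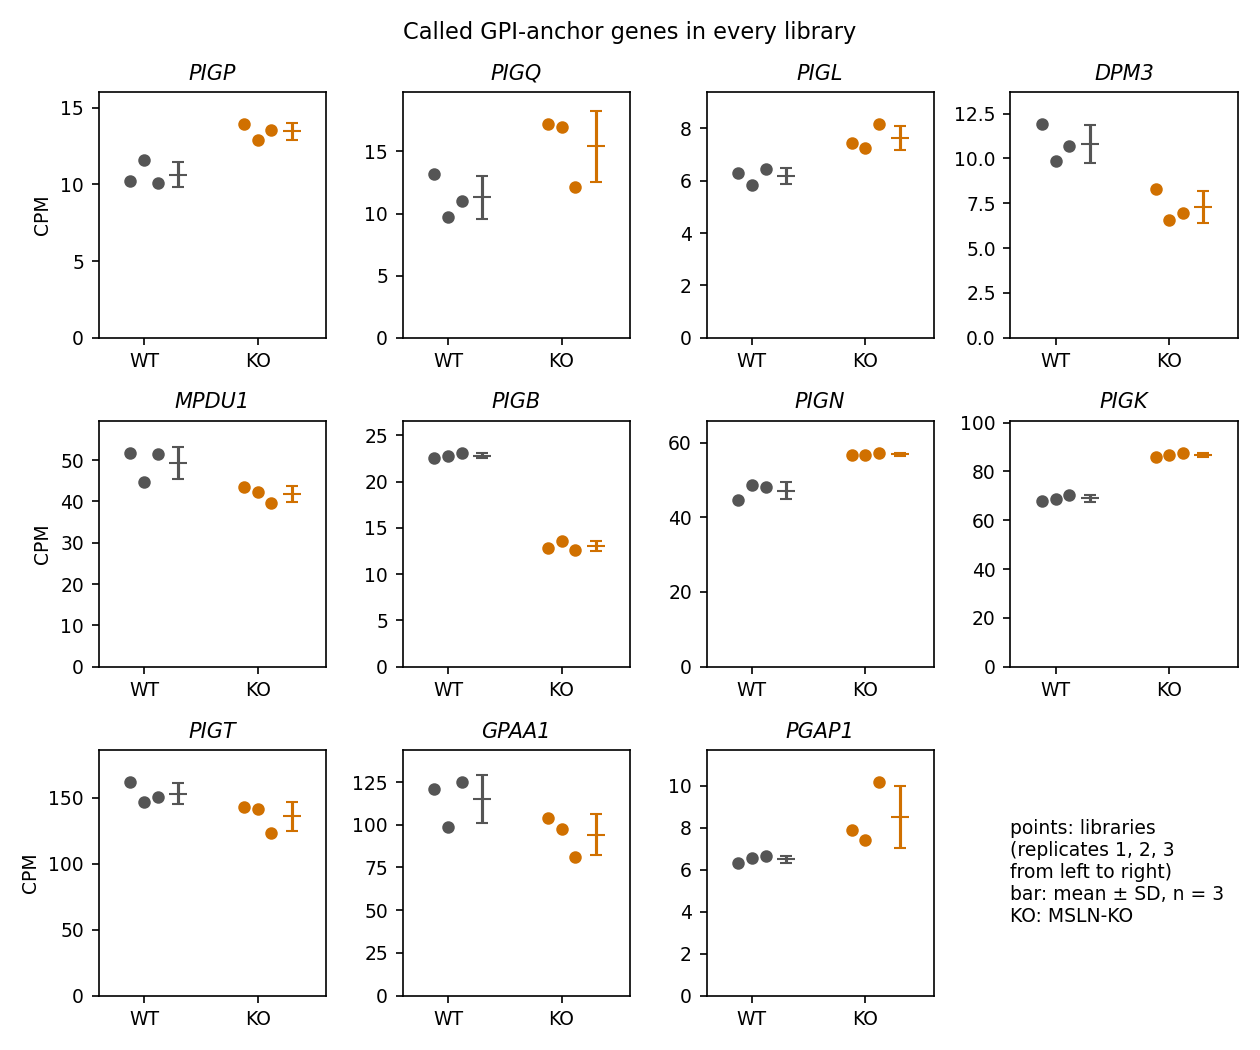
CPM (vertical axes, from 0, scaled per gene) of the 11 called GPI-anchor genes in WT and MSLN-KO, with points for the libraries (replicates 1 to 3 from left to right) and bars for mean ± SD (n = 3). The groups overlap for PIGQ and GPAA1 and are apart for the other 9 genes, most clearly for PIGB (13.0 against 22.8 CPM) and PIGK (86.6 against 68.9 CPM).

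Mannose and ethanolamine phosphate are added next. Of 12 genes in this group, 3 fell (PIGB, DPM3 and MPDU1), PIGN rose and 8 were not called, with a median log2 change of 0.00. The share called was 33.3%, beside 45.7% of all genes. DPM3 and MPDU1 both act on dolichol-phosphate-mannose, the donor of the mannoses: DPM3 is the subunit that holds the synthase in the membrane, and MPDU1 is needed for use of the donor in the lumen. DPM3 (chromosome 1, 155139891 to 155140595) stood at 11.9, 9.83 and 10.7 CPM in WT and at 8.27, 6.55 and 6.97 CPM in MSLN-KO. Every MSLN-KO value lay below every WT value. The mean fell from 10.8 ± 1.05 to 7.27 ± 0.896 CPM, 1.49-fold lower (log2 change -0.52, SE 0.11, limma adjusted p = 0.00165). The other subunits of the synthase were not called: DPM1, which is catalytic, had a log2 change of 0.14 (interval 0.00 to 0.28, adjusted p = 0.0918) and DPM2 had 0.01 (-0.16 to 0.18). The difference between DPM3 and its partners was not tested.

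MPDU1 (chromosome 17, 7583529 to 7592789) stood at 51.7, 44.8 and 51.5 CPM in WT and at 43.5, 42.3 and 39.7 CPM in MSLN-KO. The lowest WT value, in replicate 2, lay just above the highest MSLN-KO value. Between the groups the mean went from 49.3 ± 3.95 to 41.8 ± 1.91 CPM (log2 change -0.23, SE 0.07, limma adjusted p = 0.0187). The call was lost without WT replicate 1 (adjusted p = 0.0729), WT replicate 3 (0.082) or MSLN-KO replicate 3 (0.0567).

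PIGB, the enzyme that adds the third mannose, had the lowest log2 change of the members. It lies on chromosome 15 (55318960 to 55355648) and stood at 22.5, 22.8 and 23.1 CPM in WT and at 12.9, 13.6 and 12.6 CPM in MSLN-KO. The mean fell from 22.8 ± 0.284 to 13.0 ± 0.532 CPM, 1.75-fold lower (log2 change -0.76, SE 0.07, limma adjusted p = 3.4e-06). Most of its chromosome moved with it. Of 371 listed genes on chromosome 15, 308 fell and 13 rose, and of the 36 within 5 Mb of PIGB, PIGB included, 30 fell and 2 rose, with a median log2 change of -0.57. With that regional median subtracted as a fixed value, PIGB was at -0.20 (limma adjusted p = 0.0383). This p leaves out the error of the median and the spread of the region, where log2 changes ran from -1.19 to 0.76. Whether PIGB fell by more than its region was not tested. It is the only listed member on chromosome 15, and the other 30 gave 6 higher, 4 lower and a median of 0.00.

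PIGN, which puts ethanolamine phosphate on the first mannose, rose. It lies on chromosome 18 (61905255 to 62187118), next to the GC boxes printed above. It stood at 44.6, 48.7 and 48.2 CPM in WT and at 56.6, 56.8 and 57.2 CPM in MSLN-KO, where the 3 values lay close together. On average it went from 47.2 ± 2.21 to 56.9 ± 0.329 CPM (log2 change 0.27, SE 0.06, limma adjusted p = 0.00287). The other transferases of ethanolamine phosphate were not called, with log2 changes of -0.03 for PIGO, which acts on the third mannose (interval -0.22 to 0.15), and 0.08 for PIGG, which acts on the second (-0.09 to 0.24). PIGF, the partner of both, was at 0.01 (-0.18 to 0.20).

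The remaining mannosyltransferase genes were also uncalled. PIGM, which adds the first mannose (chromosome 1, 160024953 to 160031991), had the highest absolute change among the uncalled genes of the step. It stood at 17.4, 17.6 and 19.5 CPM in WT and at 21.3, 18.5 and 21.4 CPM in MSLN-KO, with overlap through MSLN-KO replicate 2 (log2 change 0.16, SE 0.08, limma adjusted p = 0.142). PIGX, which stabilises PIGM, was at -0.01 (interval -0.16 to 0.13), and PIGV, which adds the second mannose, at -0.07 (-0.24 to 0.10).

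Attachment of the anchor rests on the transamidase, a complex of 5 proteins. Its genes split: PIGK, the catalytic subunit that cuts the signal, rose, PIGT and GPAA1 fell, and PIGS and PIGU were not called, so 3 of 5 were called, beside 45.7% of all genes. PIGK (chromosome 1, 77088990 to 77219430) stood at 67.8, 68.6 and 70.4 CPM in WT and at 85.7, 86.6 and 87.5 CPM in MSLN-KO. The groups were far apart relative to their spread. The mean rose 1.26-fold, from 68.9 ± 1.33 to 86.6 ± 0.898 CPM (log2 change 0.33, SE 0.05, limma adjusted p = 0.000265). With the GC trend of each library removed, the change was 0.21 (adjusted p = 0.00441), and the GC content of the PIGK transcript is 34.9% beside a median of 48.4% over all genes.

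PIGT, which links subunits of the complex (chromosome 20, 45416067 to 45456934), stood at 161.8, 146.9 and 150.2 CPM in WT and at 143.3, 141.1 and 123.1 CPM in MSLN-KO. The groups did not overlap, and MSLN-KO replicate 3 was the lowest. The mean went from 153 ± 7.85 to 136 ± 11.1 CPM (log2 change -0.17, SE 0.07, limma adjusted p = 0.0489). The call was lost in 7 of 16 other settings, among them those without WT replicate 1 (adjusted p = 0.172), WT replicate 3 (0.0886), MSLN-KO replicate 2 (0.0517) or MSLN-KO replicate 3 (0.171). Without MSLN-KO replicate 3 the log2 change of PIGT was -0.10. GPAA1, which brings the anchor to the complex (chromosome 8, 144082590 to 144086216), stood at 121.2, 98.9 and 125.0 CPM in WT and at 104.1, 97.3 and 81.0 CPM in MSLN-KO. The groups overlapped, since WT replicate 2 lay below MSLN-KO replicate 1. The average went from 115 ± 14.1 to 94.2 ± 11.9 CPM (log2 change -0.29, SE 0.10, limma adjusted p = 0.0291). That call was lost without WT replicate 1 (0.101), WT replicate 3 (0.132) or MSLN-KO replicate 3 (0.12), where the log2 change was -0.18. The call of GPAA1 was also lost with all 6 libraries when the variance trend was left out (limma adjusted p = 0.0647). With the GC trend of each library removed the log2 change was -0.39 (adjusted p = 0.000141), and the GC content of the GPAA1 transcript is 64.3%.

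PIGU, a subunit that binds the anchor, stood at 39.9, 37.4 and 43.9 CPM in WT and at 43.5, 44.4 and 38.4 CPM in MSLN-KO. Its groups overlapped, with a log2 change of 0.06 (interval -0.11 to 0.23, limma adjusted p = 0.573). PIGS, a structural subunit, was at -0.04 (-0.17 to 0.08). Per kilobase of principal transcript, the mean levels went from 68.1 to 60.5 CPM per kb for PIGT, from 55.4 to 45.3 for GPAA1, from 24.8 to 25.8 for PIGU, from 23.9 to 23.2 for PIGS and from 14.997 to 18.8 for PIGK. PIGK thus had the lowest level per length of the 5 subunits in both groups, and PIGT the highest. These lengths are of 1 annotated transcript per gene and do not show which transcripts the cells make.

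After attachment the anchor is remodelled, and here 1 of 5 listed genes was called (20%, beside 45.7% of all genes). PGAP1, which removes the acyl chain from the inositol (chromosome 2, 196833004 to 196927796), stood at 6.32, 6.54 and 6.66 CPM in WT and at 7.89, 7.42 and 10.2 CPM in MSLN-KO. The groups did not overlap, but MSLN-KO replicate 3 lay far above the other 2. The mean went from 6.51 ± 0.169 to 8.49 ± 1.48 CPM (log2 change 0.33, SE 0.11, limma adjusted p = 0.0319). Without MSLN-KO replicate 3 the change was 0.20 (adjusted p = 0.123). The call was also lost without WT replicate 1 (0.0797), WT replicate 2 (0.0582), WT replicate 3 (0.0674), or WT replicate 2 and MSLN-KO replicate 3 together (0.147), and with the GC trend removed (0.0802). PGAP1 transcripts have a GC content of 35.0%.

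PGAP3, a Golgi enzyme that starts the exchange of a fatty acid (chromosome 17, 39671122 to 39696797), stood at 10.9, 10.02 and 9.94 CPM in WT and at 12.04, 12.9 and 11.1 CPM in MSLN-KO. The groups did not overlap and the gene was not called (log2 change 0.20, SE 0.09, limma adjusted p = 0.0789). PGAP2, which completes the exchange, was at 0.09 (interval -0.11 to 0.28). MPPE1, the phosphoesterase that removes an ethanolamine phosphate before export, was at -0.06 (-0.22 to 0.10). PGAP6, a surface phospholipase that acts on anchored proteins, was at 0.00 (-0.20 to 0.20).

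Across all 4 steps, 5 of the 11 called members (PIGB, DPM3, PIGN, PIGP and PIGK) were called under every setting run, and the other 6 lost the call under at least 1. The plot of adjusted p over the settings shows how near the 6 lie to the threshold. PIGP, among the 5, also came near it, with a limma adjusted p of 0.049 without MSLN-KO replicate 1 and 0.0445 without WT replicate 3. Of the 20 uncalled members, PIGA, PIGW and PGAP3 passed under at least 1 setting.

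**Figure D3:**
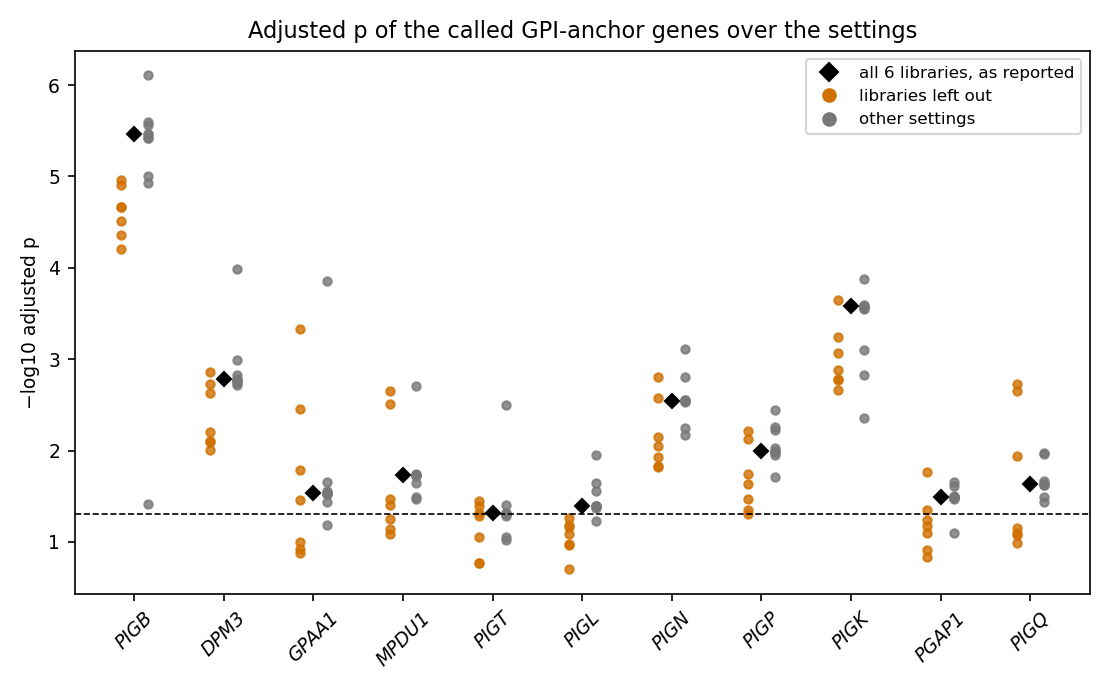
Adjusted p of the 11 called GPI-anchor genes (vertical axis, −log10 scale, dashed line at an adjusted p of 0.05) for the fit to all 6 libraries (diamonds), for fits with libraries left out (orange) and for other settings (grey). Every point of PIGB, DPM3, PIGN, PIGP and PIGK lies above the line, and PIGL falls below it whenever a library is left out.

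Many GPI-anchor genes share their position with a neighbour. Of the 31 members, 7 start head to head with another listed gene, with the starts at most 1000 bases apart. PIGN shares such a start with RELCH, 137 bases away, and both rose: RELCH had a log2 change of 0.19 (limma adjusted p = 0.0344). PIGP lies 56 bases from TTC3, which was not called (0.08, adjusted p = 0.351). PIGG lies 54 bases from ZNF721, which rose by 0.43 (adjusted p = 0.000487) while PIGG was not called. The start of PIGB overlaps those of RAB27A and PIGBOS1, which fell by 0.67 (adjusted p = 1.58e-06) and by 0.43 (adjusted p = 0.00194), also on chromosome 15. ARV1 with TTC13, DPM1 with MOCS3 and PGAP2 with NUP98 had no called gene on either side.

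Exons of 11 members share bases with another listed gene, in 7 cases on the opposite strand. The kit keeps strand, but the strand setting of the counting is not given in the sources used here, so reads of such pairs may not be separate. PIGB shares 443 bases (9.8% of its exons) with CCPG1, which rose by 0.76 while PIGB fell. PIGL shares 258 bases (4.2%) with CENPV, which rose by 0.56, and 321 bases with NCOR1, which was not called. PIGW shares 582 bases (20.8%) with MYO19, which was not called, and MPDU1 shares 192 bases (5.9%) with FXR2, also not called. PIGF shares 655 bases with RHOQ, which rose by 0.21.

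The donors of the anchor's building blocks were taken from a list of 23 genes, of which 22 were listed. Here 4 rose and 6 fell (45.5% called, beside 45.7% of all genes), with a median log2 change of 0.07. The donors' share is thus that of the table, and the genes below are given as their values only. The genes that fell include PCYT2, SELENOI and ETNK1, enzymes that turn ethanolamine into the activated form and phosphatidylethanolamine, the source of the ethanolamine phosphates. PCYT2 stood at 47.8, 42.8 and 50.7 CPM in WT and at 28.5, 29.6 and 23.4 CPM in MSLN-KO, with no overlap. Its log2 change was -0.78 (SE 0.09, limma adjusted p = 1.8e-05), beside -0.26 for SELENOI and -0.17 for ETNK1. GNPAT, which starts the synthesis of the ether lipids that anchors carry, fell by 0.18, and AGPS, which acts after it, rose by 0.28. Those directions are opposite within 1 short pathway. GNPAT lost its call without WT replicate 1 or 3 or MSLN-KO replicate 1 or 2 (limma adjusted p up to 0.20), and ETNK1 without WT replicate 2 or 3 or MSLN-KO replicate 1 or 2 (up to 0.0886). With the GC trend removed ETNK1 was at -0.30 (adjusted p = 4.3e-05).

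Genes for dolichol and mannose also moved both ways. SRD5A3, the reductase that completes dolichol, rose from 13.2 ± 0.765 to 19.3 ± 1.45 CPM (log2 change 0.52, SE 0.08, limma adjusted p = 0.000288), and NUS1, a subunit of the enzyme that makes the chain, fell by 0.28. GMPPB, which makes GDP-mannose, rose by 0.25, and GFPT1, which commits sugar to GlcNAc synthesis, rose by 0.22. The call of GMPPB was lost without WT replicate 2 (limma adjusted p = 0.0533) or MSLN-KO replicate 1 (0.0632), and without WT replicate 2 and MSLN-KO replicate 3 together its log2 change was 0.17 (0.0681). The call of GFPT1 was lost without any 1 library other than WT replicate 2 (up to 0.131). MPI, the isomerase that makes mannose phosphate, fell from 49.4 ± 3.00 to 24.8 ± 1.33 CPM (log2 change -0.97, SE 0.07, limma adjusted p = 2.2e-07). MPI too lies on chromosome 15, where 48 of the 58 listed genes within 5 Mb of it fell, and with the regional median subtracted it was at -0.43.

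Of 9 other genes tied to the pathway, 5 were listed and 4 fell, beside 23.3% of all genes that fell. They are CLPTM1L, a scramblase for the early GlcN intermediate (log2 change -0.28), CANX, the chaperone calnexin (-0.22), HSD17B12, an enzyme of fatty acid elongation (-0.31), and GDPD5, a surface phosphodiesterase that cleaves some anchors (-0.31). The calls of CANX (limma adjusted p = 0.0564) and GDPD5 (0.0534) were lost without MSLN-KO replicate 1, and that of GDPD5 also without WT replicate 1 or 3 or MSLN-KO replicate 3, or without WT replicate 2 and MSLN-KO replicate 3 together (0.0528). B3GALT4, which adds a galactose side chain, was not called (0.17). The cargo receptors and coat proteins that carry anchored proteins out of the endoplasmic reticulum were all listed. Of these 14 genes, 5 fell and none rose (35.7% called, beside 45.7% of all genes), with a median log2 change of -0.10. The p24 receptors TMED2 and TMED10 fell by 0.26 and 0.20, and the coat genes SEC23B, SEC13 and SEC31A by 0.34, 0.34 and 0.18. Without MSLN-KO replicate 1, TMED10 (limma adjusted p = 0.0518) and SEC31A (0.0778) were not called. SEC24C and SEC24D, the coat subunits that sort this cargo, were not called (log2 changes 0.01 and 0.04).

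The proteins that carry the anchor are the clients of the pathway. From a list of 94 of their genes, 28 were listed, MSLN among them. The table lists genes that reach 4.9 CPM in at least 3 libraries. Of the 28, CEACAM6, CD14 and ULBP1 met that only through the group where they are high, so they had to differ to be listed, and the 31 GPI-anchor genes all lay above the limit in every library. Without MSLN, 6 of 27 rose and 12 fell (66.7% called, beside 45.7% of all genes), with a median log2 change of -0.21. CEACAM6, CD14 and ULBP1 are counted in these figures. The share called is thus partly fixed by the listing and allows no conclusion beside that of all genes. These figures describe the listed genes and say nothing of the others on the list. CEACAM6, a granulocyte adhesion molecule, stood at 22.8, 30.3 and 34.2 CPM in WT and at 3.92, 4.56 and 2.76 CPM in MSLN-KO (log2 change -2.66, SE 0.15). As CEACAM6 had to differ to be listed, its p-value is not given. Its groups were far apart, and all MSLN-KO values lay under the limit. CD14, the lipopolysaccharide co-receptor of monocytes and 1 of the 11 markers above, went from 11.3 ± 1.97 to 4.21 ± 0.849 CPM (log2 change -1.24). BST1, CD52 and VNN1 fell by 0.62, 0.51 and 0.43.

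ULBP1 encodes a ligand of the NKG2D receptor of natural killer cells, and its WT values all lay under the limit. It stood at 2.16, 1.43 and 1.601 CPM in WT and at 9.01, 10.5 and 10.5 CPM in MSLN-KO, 5.77-fold higher (log2 change 2.01, SE 0.12). ULBP1 too had to differ to be listed, and its p-value is not given. The glypicans GPC3 and GPC4 rose by 0.70 and 0.29, ART3, a member of the ADP-ribosyltransferase family, by 0.60, RECK, an inhibitor of matrix proteases, by 0.44, and DPEP2, a dipeptidase, by 0.32. Without WT replicate 3, GPC4 was at 0.19 and not called (limma adjusted p = 0.0738). CD55, a complement regulator whose loss marks paroxysmal nocturnal haemoglobinuria, was not called (-0.02, interval -0.16 to 0.12), nor was PRNP, the prion protein (-0.06, -0.17 to 0.06). These are transcript levels, and the amount of anchored protein at the surface was not measured. The part of the change in monocytic markers in these values was not tested.

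**Figure D4:**
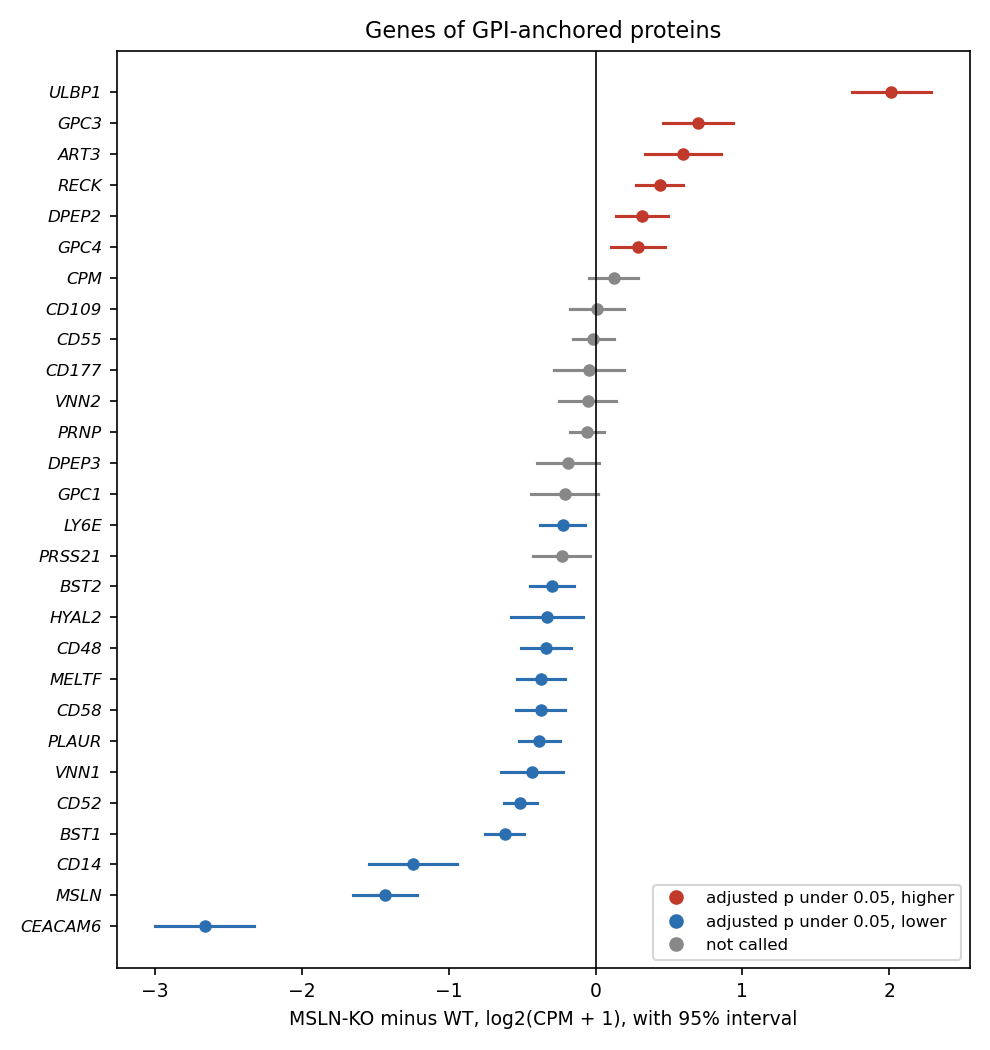
Change of the 28 listed genes of GPI-anchored proteins between MSLN-KO and WT (horizontal axis, difference of mean log2(CPM + 1), 3 libraries per group), with points for the limma estimate, bars for its 95% confidence interval and colour for genes called higher or lower. The estimates run from -2.66 (CEACAM6) to 2.01 (ULBP1), and both of these genes are in the table only through the group where they are high.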

How the data were processed

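The 6 samples are NOMO-1 cells, 3 WT and 3 MSLN-KO. Per the labels' protocols, the kit for total RNA used columns, and libraries were depleted of ribosomal RNA and kept the strand. Per the submitters' processing notes, the tools were STAR, featureCounts and edgeR, on the build GRCh38/hg38. Tool versions, annotation and counting strand are not stated there. The authors deposited CPM values after TMM normalization, in 1 table with a column for each library. Columns sum to between 967718 and 1009572, and 100% of the values are whole multiples (to within 0.01) of the worth of 1 read, which gave the read numbers. All genes reach 4.9 CPM in at least 3 libraries, so lower genes are not listed. Median reads per gene were 800 to 1080.

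Symbols were matched for 11354 genes and GENCODE 29 positions on GRCh38 (1-based) for 11314. The fit used limma 3.58.1 under R 4.3.3 on log2(CPM + 1), with eBayes and its intensity trend, no covariates and all 6 libraries. Calls needed an adjusted p (Benjamini-Hochberg, two-sided) below 0.05. Log2 changes on that scale understate changes of low genes, while folds compare mean CPM. The planned minimum mean of 0.5 CPM left out no gene. The fit was tested on simulated data, where it recovered 25 of 50 genes changed 1.25-fold and 47 of 50 changed 1.5-fold. A gene that was not called may therefore still have changed by about 1.25-fold. Intervals are limma's at 95%. GC content and length came from 1 principal or longest transcript per gene.

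The members and all gene lists were chosen with earlier results of these data known. Listed members are all named. The called members, and the uncalled member with the highest absolute change in each step, have their values in every library. Of each other list the called members are named, at most 6 per direction. Neighbouring genes and uncalled genes of other lists were named by position or role after their values were seen. Alternatives changed the pseudocount, minimum, scaling or variance trend, subtracted the median change of genes within 5 Mb on chromosome 15, used a replicate block, or left a library out. Chosen after seeing the data were voom on the whole reads, removal of the GC trend of each library, and the fit without WT replicate 2 and MSLN-KO replicate 3.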

Additional observations from a re-analysis of the deposited data

How the results depend on the processing

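Replicate numbers come from the sample titles. Same-numbered WT and MSLN-KO libraries deviated together at r = 0.19, -0.17 and -0.09 for numbers 1, 2 and 3. WT replicate 2 and MSLN-KO replicate 3 did so at r = 0.30. Deviations within a group depend on each other and follow GC content in part. Whether the numbers pair the samples therefore cannot be judged from them. With the replicate block, 5 GPI-anchor genes were higher and 5 lower, genes called over the whole table numbered 4946, and PIGL alone of the results lost its call (adjusted p = 0.0594). With libraries left out, members called higher ranged from 3 to 5 and members called lower from 2 to 6, against 6 and 5 with all libraries. Calls over the whole table moved too, from 4092 (without MSLN-KO replicate 1) to 5580 (without WT replicate 2 and MSLN-KO replicate 3), against 5197. The lowest member counts came without WT replicate 2 or 3 (3 higher) and without WT replicate 1 or 3 (2 lower), and 3 were lower without MSLN-KO replicate 3. In those fits the table had 4639, 5114 and 4120 calls without WT replicates 1, 2 and 3, and 4927 without MSLN-KO replicate 3. With 1 library left out, the group with fewer libraries shares the estimate of the spread. The counts for GPI-anchored protein genes stayed within 1.5 times their value under every setting run.

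Sign changes occurred in 9 uncalled members near 0, and the cause was not tested. With columns rescaled to one total, PIGC was at 0.0045, PIGY at 0.0216, ARV1 at 0.00298 and PIGX at 0.0221. With the GC trend removed, PIGC was at 0.0148, PIGY at 0.00738, DPM2 at -0.0542, PIGX at 0.0290 and PGAP6 at -0.102. PGAP6 was at -2.023e-05 with a pseudocount of 5 and at -0.00287 with voom. With libraries left out, the log2 change ranged from -0.0646 to 0.0251 for PIGC, -0.0530 to 0.0197 for PIGY, -0.121 to 0.0419 for ARV1, -0.0399 to 0.0618 for DPM2 and -0.0597 to 0.0337 for PIGX. The ranges were -0.0627 to 0.0502 for PIGF, -0.124 to 0.0284 for PIGO, -0.0734 to 0.00182 for PIGS and -0.0978 to 0.0808 for PGAP6. With a pseudocount of 5, PIGL was at 0.17, PIGW at -0.17, CD14 at -0.82 and ULBP1 at 1.16. Without WT replicate 2 and MSLN-KO replicate 3, PIGM was at 0.10. Count models (edgeR, DESeq2), planned as alternatives, were not run. Voom on the whole reads worked out from the CPM values was run instead. Genes below 4.9 CPM in most libraries were not listed and could not be examined.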
